A study of Mus musculus with 6 samples.

Results

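The cells described here are T cells of the mouse islet that carried a transcript of *Cxcr6*, a chemokine receptor, or of *Tcrg-C1*, a constant segment of the γ chain of the T cell receptor. They were drawn from a single-cell RNA-Seq study of islets from mice with and without 14-3-3ζ in their β cells. A cell was taken as a member when it had at least 500 detected genes, at most 10% of its transcripts from mitochondrial genes, less than 25% from *Ins1* and *Ins2*, at least 2 transcripts of *Cd3d*, *Cd3e* and *Cd3g* together, at least 1 transcript of *Cxcr6* or *Tcrg-C1*, and none of the B cell gene *Cd79a*. Transcripts are counted as unique molecular identifiers (UMIs), so that each is a molecule captured from that cell's droplet. Of 43445 barcodes in all, 1772 passed as T cells and 260 of these were members, hereafter the gated T cells, which is 14.7% of the T cells (95% exact binomial interval 13.1 to 16.4%, for counting error only). The other 1512 T cells of the same libraries, with no UMI of either gene, served as the comparison. The members were thus chosen by their UMIs of these genes, so the levels of the gate genes are a description and were not tested.

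The islets came from C57/BL6 mice aged 12 to 14 weeks. β14-3-3ζ–KO mice (KO) were made by crossing Ins1-CreThor mice with mice whose exon 4 of *Ywhaz*, the gene of 14-3-3ζ, is flanked by LoxP sites, and the littermates used as controls (WT) carried the Cre without the deletion. Ins1-CreThor acts in β cells, so T cells were not the target of the deletion in either genotype. There were 3 libraries and 3 mice of each genotype, so each library was taken as 1 mouse. The islets had been kept overnight and live cells were enriched before capture, so the T cells are those that stayed with isolated islets.

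T cells recognise antigen through a receptor made of an α and a β chain or of a γ and a δ chain, held on the surface by the CD3 proteins. Naive αβ T cells circulate through lymph nodes with the help of *Ccr7* and keep the transcription factors *Lef1* and *Tcf7*, whereas memory and innate-like T cells (γδ T cells, NKT cells and MAIT cells among them) settle in tissues and respond fast to cytokines. CXCR6 binds CXCL16 and is known from tissue-resident CD8 memory cells and from innate-like T cells. The mouse has 4 γ constant segments, and a transcript of one of them can be made in a cell that goes on to use the αβ receptor, so a γ transcript alone does not name a γδ T cell.

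The constant segments of the γ locus on chromosome 13 are close copies, which matters for the *Tcrg-C1* arm of the gate because a read in a shared stretch cannot be given to 1 segment. *Tcrg-C1* lies at chr13:19214103-19217024 on the plus strand (GRCm38, the mm10 build named in the labels), *Tcrg-C3* at chr13:19260884-19263528 on the plus strand, *Tcrg-C2* at chr13:19304649-19307551 on the minus strand and *Tcrg-C4* at chr13:19344558-19352756 on the plus strand. Bases 1 to 90 of each transcript in GENCODE vM21 are printed to show how alike the segments are, with capitals where a base differs from *Tcrg-C1*.
Tcrg-C1: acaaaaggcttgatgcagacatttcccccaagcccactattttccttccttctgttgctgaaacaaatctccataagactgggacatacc
Tcrg-C2: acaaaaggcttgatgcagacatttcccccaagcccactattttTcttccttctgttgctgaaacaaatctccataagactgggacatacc
Tcrg-C3: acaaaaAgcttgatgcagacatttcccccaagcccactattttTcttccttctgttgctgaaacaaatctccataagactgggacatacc
Tcrg-C4: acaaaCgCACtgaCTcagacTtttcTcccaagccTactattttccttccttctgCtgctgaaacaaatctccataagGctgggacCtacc
In this stretch *Tcrg-C2* differed from *Tcrg-C1* at 1 base, *Tcrg-C3* at 2 and *Tcrg-C4* at 12. Over the whole aligned transcript the identity with *Tcrg-C1* was 96.1% for *Tcrg-C2* (909 bases aligned), 97.2% for *Tcrg-C3* (647 bases, its transcript being 648 long) and 71.3% for *Tcrg-C4*. The assay reads the 3′ ends of transcripts, and over the last 300 bases the identity was 93.9% for *Tcrg-C2*, 61.0% for *Tcrg-C3* (218 bases aligned) and 58.8% for *Tcrg-C4*. Counts of *Tcrg-C1* may thus be split with *Tcrg-C2* or *Tcrg-C3*, and *Tcrg-C1* UMIs are uncertain to that extent. *Cxcr6* has no such copy among these genes and lies at chr9:123806475-123811760 on the plus strand.

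The gated T cells were spread unevenly over the libraries. The WT libraries 1, 2 and 3 held 27, 97 and 2 of them among 113, 476 and 8 T cells, and the KO libraries 1, 2 and 3 held 5, 118 and 11 among 11, 1089 and 75. KO library 2 alone gave 45.4% and WT library 2 gave 37.3% of all gated T cells, so pooled shares below are mostly those of these 2 libraries. No barcode of a T cell was shared between libraries. WT library 3, with 2 gated cells, was left out of the main tests of expression between gated and other T cells and between genotypes. These used the other 5 libraries, whose values are given in the order WT 1, WT 2, KO 1, KO 2 and KO 3. Levels are UMIs summed over the gated cells of a library, scaled to counts per 1000000 UMIs outside the gate, insulin and mitochondrial genes (CPM). In such sums, more cells with a transcript and more transcript per cell cannot be told apart. The sums held 188637, 633583, 22570, 759845 and 207644 UMIs, so that 1 UMI was worth 44.3 CPM in the 5 gated cells of KO library 1, where a count of 0 allows up to 133 CPM (3 UMIs).

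**Figure D1:**
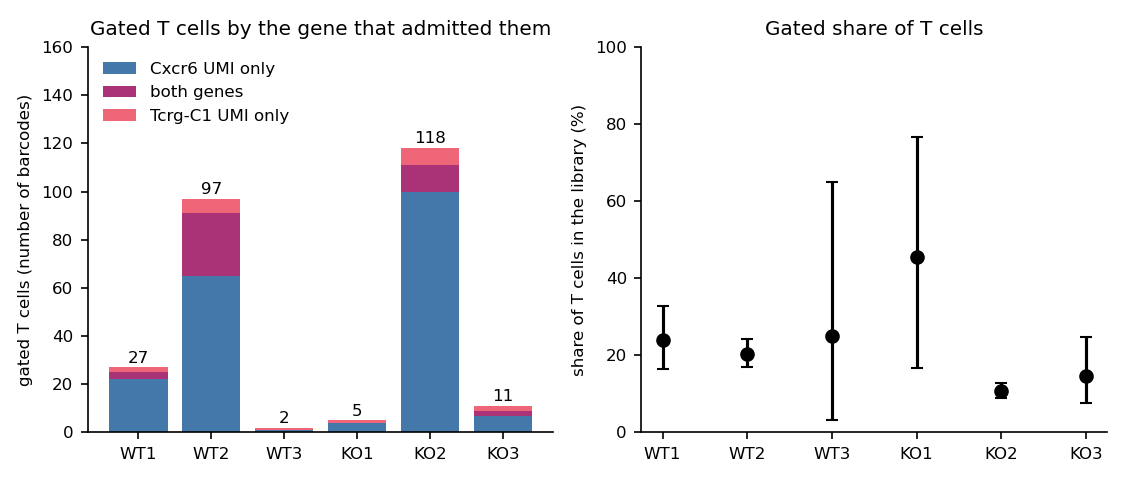
Gated T cells in each of the 6 libraries, as the share of T cells with their exact 95% binomial intervals and as numbers of cells with *Cxcr6* alone, *Tcrg-C1* alone or both. The shares ran from 10.8% in KO library 2 to 45.5% in KO library 1, which rests on 11 T cells.

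Of the 260 gated T cells, 199 had *Cxcr6* only, 19 had *Tcrg-C1* only and 42 had both. The *Cxcr6*-only cells numbered 22, 65 and 1 in the WT libraries and 4, 100 and 7 in the KO libraries, and the 61 cells with *Tcrg-C1* numbered 5, 32 and 1 and 1, 18 and 4. Membership mostly rested on few molecules: 142 cells (54.6%) had a single UMI of the gate genes, 52 had 2 and 66 had 3 or more, with 33 as the highest. The CD3 genes stood at a median of 9 UMIs, and 14 members had the 2 UMIs that the gate asks for at least. Also, 14 members, all in KO library 2, had 20 to 25% of their UMIs from insulin. Just outside the gate were 5 barcodes with 1 CD3 UMI and 22 with a *Cd79a* UMI, which met every other condition. A further 23 had 25% or more insulin and met the other conditions, except that *Cd79a* was not checked in them.

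The gate transcripts were rare in cells that should lack them. In 3174 B cells of the same libraries *Cxcr6* was found in 8 cells (0.25%) and *Tcrg-C1* in 4 (0.13%), at a median of 5247 UMIs a cell against 5427 in the gated T cells. Depth was close to that of the other T cells, whose median was 4996 UMIs. The library medians differed by 638 ± 686 UMIs (SD, n = 5 libraries) and were higher in the gated cells of 4 of 5 libraries, which an exact sign-flip test did not separate (2-sided p = 0.125, the smallest p that 5 pairs allow being 0.0625). Without KO library 3 the difference was 381 UMIs. After cells were thinned to 2000 UMIs, the gated cells had more detected genes in 5 of 5 libraries, by 42.0 ± 25.1 (exact sign-flip p = 0.0625). At this depth, 8 other T cells with fewer UMIs were left out. Thinned to 1000 UMIs, the difference was 18.4 genes, higher in 4 of 5 libraries (exact sign-flip p = 0.125). Barcodes above 15000 UMIs, which can hold more than 1 cell, were 23 of the gated T cells with 31.5% of their UMIs and 98 of the other T cells with 28.2%. In KO library 3, 4 of the 11 gated cells were of this kind and held 81.7% of its UMIs.

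The markers given for these cells were borne out only in part. *Cd3e*, a gate gene, was detected in 82.3% of the gated cells. *S100a4*, a calcium-binding protein of memory and effector T cells, was detected in 27.3% of gated cells, 8.47% of the other T cells and 4.85% of B cells. *Ramp1*, the partner protein of the receptor for the neuropeptide CGRP, was detected in 40.8%, 20.8% and 2.11%. *Klrb1b*, an inhibitory lectin-like receptor, was found in 4 of 260 gated cells and 3 of 1512 other T cells, and in 26 of 652 macrophages, so it did not mark these cells here.

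By coreceptor, the gated T cells were mostly CD8 cells or cells with no coreceptor UMI. *Cd8a* or *Cd8b1* without *Cd4* was found in 136 gated cells (52.3%), *Cd4* alone in 11 (4.2%), both in 4 and neither in 109 (41.9%). Among the other T cells, 615 (40.7%) had CD8 alone and 329 (21.8%) had *Cd4* alone, and 545 (36.0%) had neither. The share of cells with a *Cd4* UMI was 0, 11.3, 0, 3.39 and 0% in the gated cells of the 5 libraries and 29.1, 28.8, 50, 21.1 and 15.6% in their other T cells. It was lower in the gated cells of 5 of 5 libraries, by 26.0 ± 14.5 percentage points (SD, n = 5, exact sign-flip p = 0.0625, the smallest possible). With cells thinned to 2000 UMIs, and 8 other T cells with fewer UMIs left out, the difference was -10.8 points with the same p. Thinned to 1000 UMIs, it was -3.75 points, lower in 4 of 5 libraries (exact sign-flip p = 0.125). *Cd8a* was detected in 55.6, 24.7, 40, 44.1 and 54.5% of the gated cells and 26.7, 24.5, 0, 30.5 and 35.9% of the others, which is higher in 5 of 5 libraries by 20.2 ± 15.1 points (exact sign-flip p = 0.0625), and by 14.5 points in 5 of 5 when thinned to 2000 UMIs. Without KO library 1, the difference at 2000 UMIs was 8.09 points. Thinned to 1000 UMIs, it was 6.50 points over the 5 libraries, higher in 4 of them (exact sign-flip p = 0.125). At full depth, the *Cd8a* shares nearly met in WT library 2, and they turned there with insulin under 10% of UMIs (27.3% against 37.1%) and without barcodes above 15000 UMIs or rich in islet hormones (24.4% against 25.6%), which left 4 of 5 libraries higher. When the latter cells were also thinned, *Cd8a* was higher in 3 of 5, by 10.6 points (exact sign-flip p = 0.375).

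The data went in part against the name innate-like and memory T cells. Genes of naive and central memory T cells were common: *Ccr7* was found in 37.3% of the gated cells and 45.2% of the others, *Lef1* in 60.8% and 67.4%, and *Tcf7* in 62.7% and 65.9%. *Zbtb16*, the transcription factor PLZF of innate-like T cells, was found in 19 of 260 gated cells (7.31%, exact interval 4.46 to 11.2%) and 0.397% of the others. *Foxp3*, which marks regulatory T cells, was found in 1.92% and 7.34%. These pooled shares are a description, since cells of 1 library are not replicates.

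γδ receptor genes were found in a minority. *Trdc*, the δ constant segment on chromosome 14, was detected in 41 of 260 gated cells (15.8%), 31 of 1512 other T cells (2.05%) and 0.0945% of B cells. By library the share was 7.41, 22.7, 0, 11.9 and 18.2% in the gated cells against 1.16, 2.11, 33.3, 1.75 and 4.69% in the others, where the 33.3% of KO library 1 stands for 2 of 6 cells. It was higher in 4 of 5 libraries, and the exact sign-flip test gave p = 0.75. *Trdv4*, a δ variable segment, was found in 19 of 260 gated cells and 1 of 1512 other T cells, and *Trgv2*, a γ variable segment, in 32 of 260 and 27 of 1512. *Trac*, the α constant segment, was detected in 69.6% of gated and 69.7% of other T cells, and every gated cell had at least 1 UMI of *Trac*, *Trbc1* or *Trbc2*. Because β chain transcripts are also made in γδ T cells, that last count does not separate the lineages. Of the 41 gated cells with *Trdc*, 17 also had a *Trac* UMI and 8 a *Cd8a* or *Cd8b1* UMI.

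**Figure D2:**
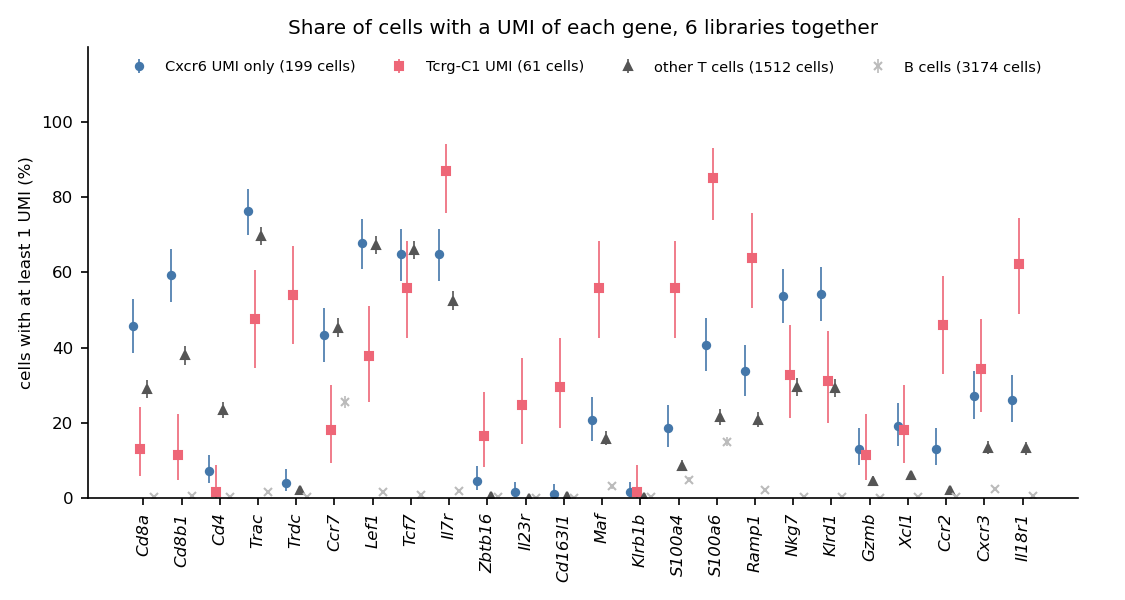
Share of cells with at least 1 UMI of 24 genes among 199 *Cxcr6*-only cells, 61 *Tcrg-C1* cells, 1512 other T cells and 3174 B cells, all libraries pooled, with exact 95% binomial intervals that cover counting error only. *Trdc*, *Cd163l1* and *Il23r* are found in the largest share of cells among the *Tcrg-C1* cells, while *Cd8b1* and *Nkg7* are more frequent in the *Cxcr6*-only cells.

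Expression was then compared between the gated and the other T cells of the same library, with the library as a block (edgeR quasi-likelihood test on summed counts, Benjamini-Hochberg adjustment). Of 6573 genes tested, 23 were higher (0.35%) and 9 were lower (0.137%) in the gated cells. DESeq2 called 24 genes, of which 21 were among those of edgeR, and 401 genes had an unadjusted edgeR p under 0.05. The higher genes included a γδ receptor gene, the chemokine receptor gene *Ccr2*, natural killer (NK) cell receptors and memory genes, and the lower genes *Ly6c1*, with the largest change, and *Cd4*. DESeq2 did not call *Xcl1* (adjusted p = 0.226), *Klre1* (0.298), *Ccl5* (0.0746), *Ramp1* (0.234), *S100a6* (0.0953), *Izumo1r* (0.191), *Tesc* (0.0885) or *Lyz2* (0.999), which edgeR called and whose values follow.

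Of the T cell receptor list, 12 genes were tested and only *Trdc* was called. *Trdc* stood at 122, 265, 0, 101 and 28.9 CPM in the gated cells and at 4.82, 6.40, 149, 7.65 and 15.1 CPM in the others. The gated cells were higher in 4 of 5 libraries, and KO library 1, with 5 gated and 6 other cells, went the other way. The log2 fold change was 3.96 ± 0.48 (SE) with adjusted p = 0.00023 in edgeR, while DESeq2 gave 2.88 with adjusted p = 0.907. *Trac* differed by -0.09 on the log2 scale (edgeR adjusted p = 0.999). The median over the 12 genes was -0.11, beside 0.01 over all genes tested.

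The chemokine and cytokine receptor list had 2 of 11 tested genes higher and none lower, with a median log2 fold change of 0.84. *Ccr2*, the receptor for CCL2, was at 63.6, 114, 44.3, 27.6 and 19.3 CPM in the gated cells and at 1.20, 13.7, 37.2, 3.28 and 2.15 CPM in the others. It was higher in 5 of 5 libraries, although in KO library 1 each value was a single UMI, and the log2 fold change was 3.21 ± 0.34 (SE) with edgeR adjusted p = 0.000105. *Ccr2* was called under each of the 12 alternative settings in which it could be tested, which did not include the fit without WT library 2. *Il18r1* (1.36, adjusted p = 0.0693), *Il2rb*, a chain of the receptors for interleukins 2 and 15 (0.84, adjusted p = 0.0519), and *Cxcr3* (0.84, adjusted p = 0.298) were not called by edgeR.

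The cytotoxic and NK receptor genes held the most calls of any list, 6 of 12 tested and all higher, with a median of 0.94. *Nkg7*, a protein of cytotoxic granules, was at 371, 322, 665, 539.6 and 472 CPM in the gated cells and 91.6, 106, 149, 232 and 249.8 CPM in the others. The gated cells were higher in 5 of 5 libraries and the lowest gated value lay above the highest of the others (1.47 ± 0.20 (SE) on the log2 scale, edgeR adjusted p = 0.000875). *Klrk1*, which encodes the activating receptor NKG2D, was at 74.2, 52.1, 0, 76.3 and 120.4 CPM and 10.8, 20.5, 112, 23.7 and 17.2 CPM, higher in 4 of 5 libraries (1.80 ± 0.31 (SE), edgeR adjusted p = 0.00858). Also higher were *Fasl*, the ligand of the death receptor Fas (2.25, adjusted p = 0.00858), *Klrc1*, which encodes NKG2A (1.82, adjusted p = 0.0238), *Klre1*, another lectin-like receptor (1.55, adjusted p = 0.0248), and *Ccl5*, a chemokine of memory CD8 T cells (0.94, adjusted p = 0.0426, all edgeR). *Klrd1*, the partner chain of NKG2A, was found in 48.8% of gated and 29.2% of other T cells but was not called (0.80, adjusted p = 0.305, edgeR). Calls of edgeR were lost for *Klrk1* without KO library 2 (adjusted p = 0.0909), *Fasl* without KO library 1 (adjusted p = 0.0671), *Klrc1* without WT library 2 or KO library 1 (adjusted p = 0.101 to 0.184), *Klre1* without WT library 2, KO library 1 or KO library 3 (adjusted p = 0.0622 to 0.0671) and *Ccl5* without WT library 1, WT library 2, KO library 1 or KO library 2 (adjusted p = 0.102 to 0.365). *Fasl* could not be tested without WT library 2 or KO library 2. Of 17 alternative settings, *Fasl*, *Klrc1* and *Klre1* could be tested in 7, 10 and 9. *Ncr1*, a receptor of NK cells themselves, was found in 1 of 260 gated cells.

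Most of the 17 cytokine genes were too low to be tested. *Xcl1*, a chemokine that draws cross-presenting dendritic cells, was the only one of 3 tested that was called, at 84.8, 71, 0, 111 and 626 CPM in the gated cells and 19.3, 23.5, 149, 52.9 and 96.9 CPM in the others. It was higher in 4 of 5 libraries and highest in KO library 3 (1.70 ± 0.30 (SE), edgeR adjusted p = 0.0101). Without barcodes above 15000 UMIs or rich in islet hormones, *Xcl1* was no longer called, nor was it without WT library 2 (adjusted p = 0.0752) by edgeR. *Il17a* was found in 1 of 260 gated cells and *Il4* in 9 of 260, against 5 of 1512 of the other T cells.

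Among effector and memory genes, *S100a4* was at 307, 382, 88.6, 168 and 62.6 CPM in the gated cells and 14.5, 147, 0, 65.1 and 15.1 CPM in the others. It was higher in 5 of 5 libraries, by 2.01 ± 0.34 (SE) on the log2 scale (edgeR adjusted p = 0.00858). *S100a6*, a related calcium-binding protein, was at 382, 838, 487, 215 and 241 CPM against 47, 161, 372, 136 and 146 CPM (1.56 ± 0.31 (SE), edgeR adjusted p = 0.0274). It was the only called gene of 17 tested in the effector and tissue memory list, whose median was 0.46. *Ramp1* was at 276, 257, 266, 75 and 62.6 CPM and 50.6, 51.2, 112, 45.6 and 71 CPM, well apart in the WT libraries but not in KO library 3, where the other T cells were higher (1.50 ± 0.31 (SE), edgeR adjusted p = 0.033). Leaving out 1 library ended the edgeR call of *S100a4* without KO library 1 (adjusted p = 0.103), *S100a6* without WT library 1, WT library 2 or KO library 1 (adjusted p = 0.0661 to 0.325) and *Ramp1* without WT library 1, WT library 2, KO library 1 or KO library 2 (adjusted p = 0.0781 to 0.522).

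Of the innate-like regulators, 5 were tested and *Id2*, an inhibitor of E protein transcription factors that memory T cells and innate lymphocytes use, was called. *Id2* was at 228, 419.8, 133, 218 and 188 CPM against 143, 140.3, 0, 124 and 71 CPM, higher in 5 of 5 libraries (1.16 ± 0.21 (SE), edgeR adjusted p = 0.0128). The call of *Id2* was lost without WT library 2, KO library 1 or KO library 2 (adjusted p = 0.0576 to 0.311) in edgeR. *Lmo4*, a LIM-only transcription cofactor, was at 196, 297, 222, 126 and 202 CPM against 63.8, 31.1, 0, 38.1 and 28 CPM. This gene was among the best separated, with every gated value above every value of the others (2.38 ± 0.26 (SE), edgeR adjusted p = 0.000105), and it was called under 16 of 17 alternative settings. *Zbtb16*, *Foxp3*, *Klrb1b*, *Gzmb*, *Tcrg-C2* and *Tcrg-C4* were too low in these sums to be tested.

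Checkpoint and costimulatory genes moved in both directions, with 2 higher and 1 lower of 10 tested. *Cd226*, the activating receptor DNAM-1, was at 90.1, 107, 88.6, 61.9 and 86.7 CPM in the gated cells and 32.5, 44.8, 37.2, 29.2 and 36.6 CPM in the others. The groups did not overlap (1.24 ± 0.21 (SE), edgeR adjusted p = 0.00858). *Cd160*, a receptor for HVEM, was also higher (1.68, adjusted p = 0.00301, edgeR), but could not be tested without KO library 2. *Tnfrsf4*, the costimulatory receptor OX40 of activated CD4 and regulatory T cells, was lower, at 0, 126, 0, 21.1 and 4.82 CPM against 74.7, 197, 186, 99.5 and 45.2 CPM (-1.62 ± 0.35 (SE), edgeR adjusted p = 0.0426). Its level was below that of the other T cells in 5 of 5 libraries. The edgeR calls ended for *Cd226* without WT library 2 or KO library 2 (adjusted p = 0.0909 to 0.149) and *Tnfrsf4* without WT library 1, KO library 1 or KO library 2 (adjusted p = 0.0648 to 0.402). Further higher genes by size of change were *Padi2*, an enzyme that converts arginine to citrulline (1.89, adjusted p = 0.00574), and *Fgl2*, a fibrinogen-like protein secreted by T cells (1.60, adjusted p = 0.0132, both edgeR), the former with no call without WT library 2 or KO library 2 (adjusted p = 0.0622 to 0.0881).

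*Cd4* itself was at 0, 42.6, 0, 9.21 and 0 CPM in the gated cells and 60.2, 75.9, 186, 57 and 30.1 CPM in the others, lower in 5 of 5 libraries (-1.89 ± 0.39 (SE), edgeR adjusted p = 0.0361). *Cd8a* (0.73, adjusted p = 0.479) and *Cd8b1* (0.43, adjusted p = 0.991) were not called by edgeR, and their direction turned with the *Tcrg-C1* gate alone (-0.56 and -2.01) and with at least 2 gate UMIs (-0.07 and -0.85). *Cd8b1* was called lower by edgeR with *Tcrg-C1* alone (adjusted p = 0.000203), and *Cd8a* was called higher without KO library 3 (0.94, adjusted p = 0.0423). With *Tcrg-C1* alone as the gate, the comparison cells included the *Cxcr6*-only cells. *Izumo1r*, which encodes the folate receptor FR4 of regulatory and anergic CD4 T cells, was lower (log2 -1.84, adjusted p = 0.0359, edgeR). *Ly6c1*, a surface protein gene with a near-identical neighbour, *Ly6c2*, to which reads may be given instead, had 1 UMI in the gated cells of the 5 libraries and 300 in the others. Per UMI sequenced that is 59.4-fold lower, with a counting interval of 10.6- to 2354-fold. *Tesc*, a calcium-binding protein (-1.77, adjusted p = 0.0361), *Tspan32*, a tetraspanin (-1.37, adjusted p = 0.0101), and *Trib2*, a pseudokinase (-1.24, adjusted p = 0.0132), were lower as well (edgeR). With 1 library less, edgeR did not call *Cd4* without WT library 1, KO library 1 or KO library 2 (adjusted p = 0.0661 to 0.382), *Izumo1r* without WT library 2, KO library 1 or KO library 2 (adjusted p = 0.086 to 0.589), *Tesc* without WT library 1, WT library 2, KO library 1 or KO library 2 (adjusted p = 0.0587 to 0.327), *Tspan32* without WT library 2, KO library 1 or KO library 2 (adjusted p = 0.0531 to 0.109) and *Trib2* without WT library 2, KO library 1 or KO library 2 (adjusted p = 0.0587 to 0.198).

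Beside the last lower genes stand the levels of other cell types. *Lyz2*, the lysozyme of macrophages, was at 10.6, 145, 44.3, 9.21 and 0 CPM against 2.41, 388, 0, 110.4 and 224 CPM (-2.32, adjusted p = 0.0216, edgeR). *Fth1*, the heavy chain of ferritin, was at 1103, 1913, 1462, 1220 and 1088 CPM against 3064, 2139, 2533, 2418 and 3268 CPM (-1.01, adjusted p = 0.0132, edgeR). Their edgeR calls did not hold for *Lyz2* without KO library 1 or KO library 2 (adjusted p = 0.167 to 0.327) and *Fth1* without KO library 1 or KO library 2 (adjusted p = 0.0881 to 0.167). The 11 macrophage and dendritic cell markers summed to 31.8, 936, 44.3, 65.8 and 19.3 CPM in the gated cells and 97.6, 710, 0, 782 and 2071 CPM in the others, higher in the others in 3 of 5 libraries. UMIs of another cell type were found in 58 gated cells (22.3%) and 275 other T cells (18.2%), and with them left out *Fth1* stood at -0.27 and was not called. Without barcodes above 15000 UMIs or rich in islet hormones, it stood at -0.10 with adjusted p = 0.988 (edgeR), and 69 genes were called in place of 32.

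No gene of the naive and central memory list was called in either direction (0 of 12 tested, median -0.35). *Ccr7* (-0.35, adjusted p = 0.977), *Lef1* (-0.44, adjusted p = 0.914) and *Klf2* (-0.92, adjusted p = 0.275, all edgeR) were each lower without passing the threshold. Nor was any called among 4 regulatory T cell genes, 8 cell cycle genes, 12 immediate early genes, 4 B cell markers, 2 NK and innate lymphoid markers, 14 endocrine markers, 1 endothelial marker or 6 genes of the 14-3-3 family. *Ywhaz* differed by -0.05 (edgeR adjusted p = 0.999). Leaving out a library moved the number of called genes to between 10, without KO library 2, and 71, without KO library 3, and 27, 13 and 12 were called without WT library 1, WT library 2 and KO library 1. More genes were higher than lower in these fits except without WT library 2 (6 higher and 7 lower).

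**Figure D3:**
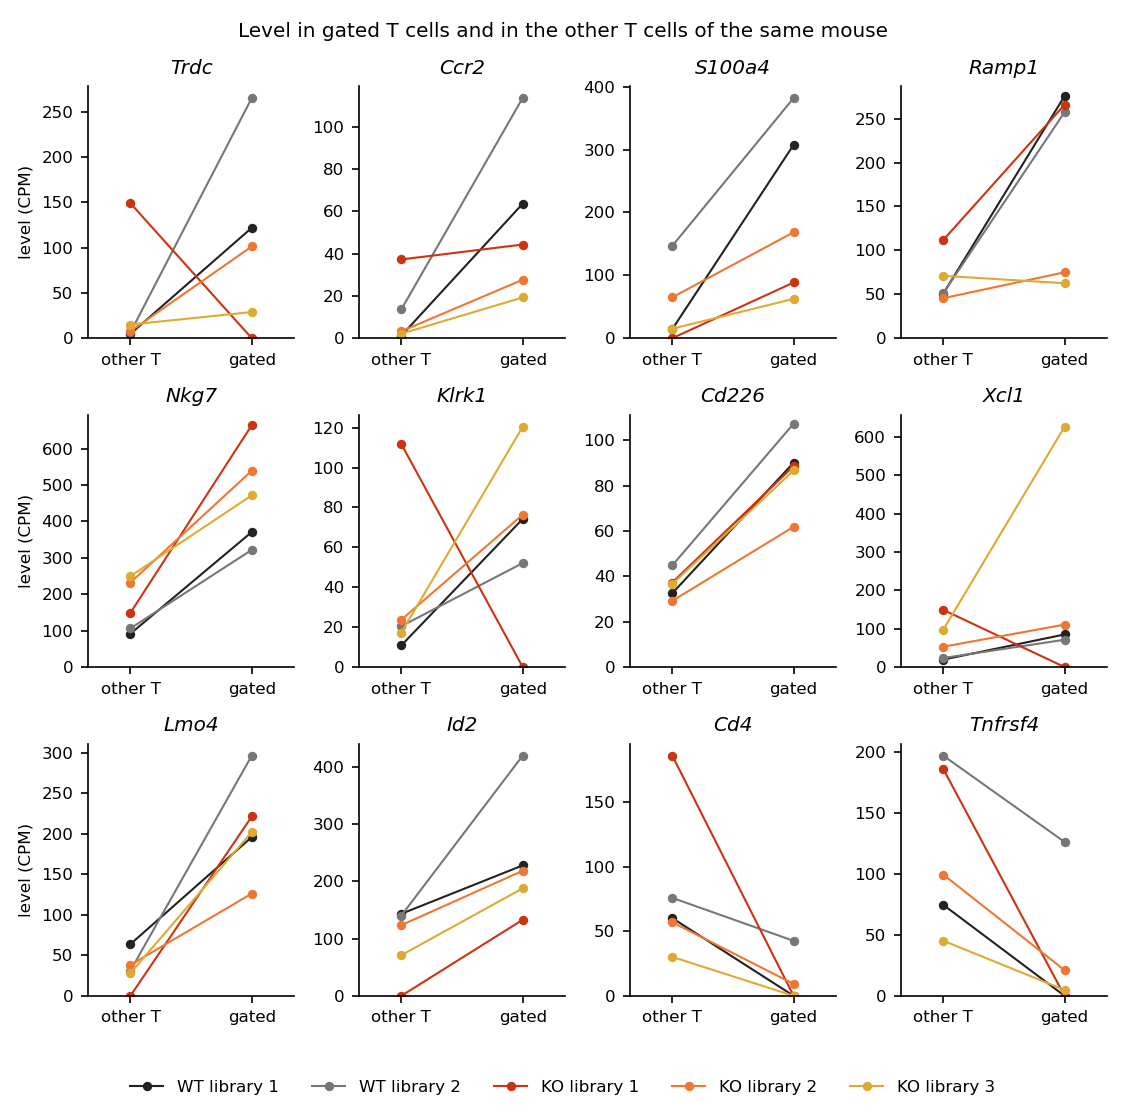
Levels of 12 genes in the other T cells and the gated T cells of the same library, in CPM outside the gate genes, with a line for each of 5 libraries. *Lmo4*, *Nkg7* and *Cd226* rise in all 5 lines, *Cd4* and *Tnfrsf4* fall in all 5, and *Trdc*, *Klrk1* and *Xcl1* rise in 4 and fall in KO library 1.

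Within the gate, the cells with *Tcrg-C1* were higher for γδ and innate-like genes and for some memory genes and lower for *Cd8b1* than the cells with *Cxcr6* only. This comparison was added after the data had been seen. It used the 3 libraries with at least 5 cells of each kind, WT 1, WT 2 and KO 2, in that order below, with the library as a block. Of 2482 genes tested, 25 were higher in the *Tcrg-C1* cells (1.01%) and 8 were lower (0.322%, edgeR, Benjamini-Hochberg). DESeq2 called 25 genes, 24 of them shared. The median UMIs of a cell were 4756, 4578 and 4787.5 in the *Tcrg-C1* cells and 6708, 5303 and 5685.5 in the *Cxcr6*-only cells. With every cell thinned to 2000 UMIs, 70 of 630 genes tested were called by edgeR, 26 higher and 44 lower, with 15 of the 33 among them. At this equal depth *Trdc* (4.30, adjusted p = 3.06e-23) and *Il18r1* (2.53, adjusted p = 1.04e-06, both edgeR) were still called, whereas the balance of higher and lower genes had turned.

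Of the genes named here as higher in the *Tcrg-C1* cells, *Cd163l1* and *Trdc* had the largest log2 changes. *Trdc* was at 703, 983 and 633 CPM in them and 42.2, 39.4 and 28.4 CPM in the *Cxcr6*-only cells (4.31 ± 0.28 (SE) on the log2 scale, edgeR adjusted p = 2.38e-06). *Cd163l1*, the scavenger receptor SCART1 of γδ T cells, was at 176, 343 and 142 CPM against 0, 4.15 and 5.99 CPM (5.34 ± 0.49 (SE), edgeR adjusted p = 6.56e-05). The *Tcrg-C1* cells were higher in each library, with no overlap for either gene. *Maf*, a transcription factor that interleukin-17-producing γδ T cells need, was at 439.7, 396 and 109 CPM against 54.3, 112 and 37.4 CPM (1.81, adjusted p = 0.0089, edgeR). *Id2* was higher by 1.11, adjusted p = 0.0388 (edgeR), which makes 3 of the 5 tested innate-like regulators.

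Of the chemokine and cytokine receptors, 3 of 7 tested were higher in the *Tcrg-C1* cells too. *Il18r1*, a chain of the interleukin-18 receptor, was at 572, 343 and 207 CPM in the *Tcrg-C1* cells and 60.3, 70.5 and 35.9 CPM in the *Cxcr6*-only cells (2.40 ± 0.30 (SE), edgeR adjusted p = 0.00109). *Ccr2* was at 396, 310.1 and 120.1 CPM against 18.1, 51.9 and 15 CPM (2.81 ± 0.36 (SE), edgeR adjusted p = 0.00109). *Il7r*, the receptor chain for interleukin 7 and a gene of the naive and central memory list, was at 1451, 996 and 851 CPM against 392, 423 and 284 CPM (1.37 ± 0.22 (SE), edgeR adjusted p = 0.00476). In each of the 3 libraries all these receptors were higher in the *Tcrg-C1* cells. *Ifngr1* was higher by 1.07, adjusted p = 0.0341 (edgeR). By cells, *Il23r*, the receptor that drives interleukin-17 production, was found in 15 of 61 *Tcrg-C1* cells, 3 of 199 *Cxcr6*-only cells and 0 of 1512 other T cells, where a count of 0 allows up to 0.198% of cells with a UMI and sets no limit on cells that express it.

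Of 14 tested genes of the effector and tissue memory list, 2 were higher in the *Tcrg-C1* cells, *S100a6* and *Ramp3*, as were the markers *S100a4* and *Ramp1*. *S100a4* was at 528, 963 and 360.2 CPM against 277, 199 and 142 CPM (1.49 ± 0.29 (SE), edgeR adjusted p = 0.0198). *S100a6* (2.04, adjusted p = 0.00803), *Ramp1* (1.51, adjusted p = 0.0089) and *Ramp3*, a relative of *Ramp1* (2.48, adjusted p = 0.00472), were called too, as were *Actn2*, an actinin (3.13, adjusted p = 0.00109), and *Ckb*, the creatine kinase of brain type (2.51, adjusted p = 0.00437, all edgeR). Without KO library 2, 18 genes were called, 12 higher and 6 lower. Leaving out a library ended the edgeR call of *S100a4* without WT library 2 or KO library 2 (adjusted p = 0.0687 to 0.134), *S100a6* without KO library 2 (adjusted p = 0.152), *Ramp1* without WT library 2 or KO library 2 (adjusted p = 0.0688 to 0.0921), *Ramp3* without KO library 2 (adjusted p = 0.0638), *Maf* without KO library 2 (adjusted p = 0.0584), *Id2* without KO library 2 (adjusted p = 0.26), *Il7r* without KO library 2 (adjusted p = 0.0893) and *Ifngr1* without KO library 2 (adjusted p = 0.251). Without WT library 1, 106 genes were called, 47 higher and 59 lower, and without WT library 2, 49, of which 29 were higher and 20 lower.

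The coreceptor *Cd8b1* went the other way. It was at 264, 19.8 and 54.6 CPM in the *Tcrg-C1* cells and 488, 189 and 374 CPM in the *Cxcr6*-only cells (-2.47 ± 0.40 (SE), edgeR adjusted p = 0.00524). Counted by cells, CD8 without *Cd4* was found in 125 of the 199 *Cxcr6*-only cells (62.8%) and 11 of the 61 *Tcrg-C1* cells (18%), and 49 of the latter (80.3%) had neither coreceptor. Of the 33 *Tcrg-C1* cells with *Trdc*, 30 had no coreceptor UMI, and 9 also had a *Trac* UMI. *Ccr7* was found in 43.2% of the *Cxcr6*-only cells and 18% of the *Tcrg-C1* cells, and *Lef1* in 67.8% and 37.7%. *Dapl1*, a gene of naive CD8 T cells, was lower (log2 -2.42, adjusted p = 0.0281, edgeR), while *Lef1* (-1.0, adjusted p = 0.134) and *Klf2* (-1.04, adjusted p = 0.1) were not called. The edgeR calls were lost for *Cd8b1* without KO library 2 (adjusted p = 0.118) and *Dapl1* without WT library 2 or KO library 2 (adjusted p = 0.0818 to 0.161).

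The cytotoxic and NK receptor genes did not separate the 2 kinds of cell, with none of 6 tested called. *Nkg7* differed by -0.26, adjusted p = 0.75 and *Klrd1* by -0.47, adjusted p = 0.579 (edgeR). The islet hormone genes *Pyy* (-3.28) and *Sst* (-3.23) were lower in the *Tcrg-C1* cells, and each stood at -0.14 with adjusted p = 0.865 (edgeR) without barcodes above 15000 UMIs or rich in islet hormones. *Rbp4*, a retinol carrier that some islet endocrine cells make, had 3 UMIs against 267, a level 18-fold lower with a counting interval of 6.09- to 87.7-fold. *Tubb5*, a tubulin, was lower (log2 -1.39, adjusted p = 0.0228, edgeR), a call lost without KO library 2 (adjusted p = 0.156).

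**Figure D4:**
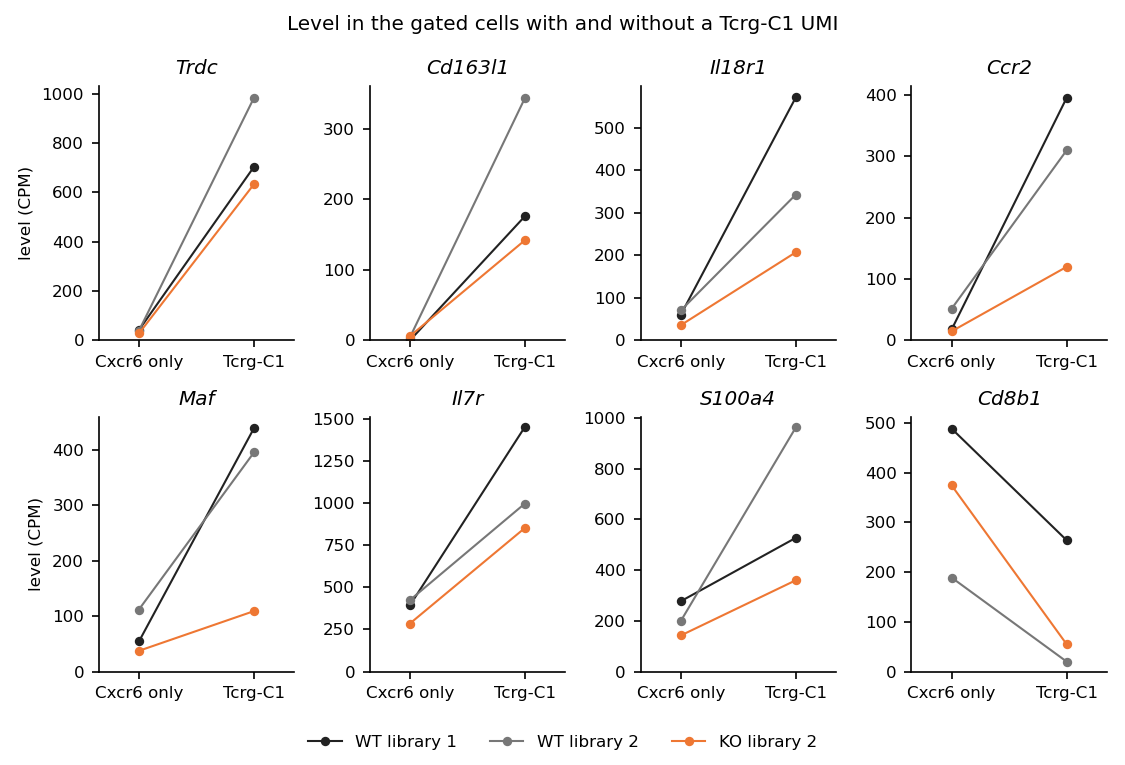
Levels of 8 genes in the *Cxcr6*-only cells and the *Tcrg-C1* cells of WT libraries 1 and 2 and KO library 2, in CPM outside the gate genes, joined by a line for each library. *Trdc*, *Cd163l1*, *Il18r1* and *Il7r* are higher in the *Tcrg-C1* cells of all 3 libraries, and *Cd8b1* is lower in all 3.

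Each gate gene was also used by itself, in fewer libraries, since fewer held 5 such cells. The cells with a UMI of that gene were set against all T cells without one. The comparison cells for *Cxcr6* alone thus included the gated cells with *Tcrg-C1* only, and those for *Tcrg-C1* alone included the *Cxcr6*-only cells. Cells with both genes counted as members in each. With *Cxcr6* alone as the gate, in 4 libraries without KO library 1, 4 genes were called by edgeR, *Lmo4*, *Ccr2* and *Gzmb* higher and *Ly6c1* lower, where the whole gate gave 12 in the same libraries. With *Tcrg-C1* alone, in WT libraries 1 and 2 and KO library 2, 168 were called, 93 higher and 75 lower. The whole gate gave 71 without KO library 3 alone, so the number for *Tcrg-C1* cannot be told apart from the choice of libraries and of comparison cells. *Tcrg-C1* cells were 23.5% of the gated T cells, and their share was 18.5, 33 and 50% in the WT libraries and 20, 15.3 and 36.4% in the KO libraries.

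The study's contrast, KO against WT, was then read within the gated T cells. As a check of the labels, *Ywhaz* was at 118, 163 and 156 CPM in the insulin-rich barcodes of the WT libraries and 22.1, 31.1 and 23.5 CPM in those of the KO libraries. In the gated T cells it was at 307 and 306 CPM in WT libraries 1 and 2 and 266, 249 and 250.4 CPM in the KO libraries. The means were 307 ± 0.901 (SD, n = 2) and 255 ± 9.42 CPM (SD, n = 3), and the groups did not overlap. They did overlap with insulin under 10% of UMIs, where KO library 2 was at 314 CPM and WT library 1 at 307 CPM (difference -38.0 CPM, exact permutation p = 0.3). They also overlapped without barcodes above 15000 UMIs or rich in islet hormones, where KO library 3 was at 354 CPM and the WT libraries at 305 and 318 CPM (difference -34.0 CPM, exact permutation p = 0.6). The main difference of -51.8 CPM gave an exact permutation p = 0.1, which is the smallest that 2 against 3 libraries allow. With every cell thinned to 2000 UMIs the difference was 22.0 CPM (exact permutation p = 0.9), so its direction depended on this setting. Over all genes, edgeR gave -0.37 with adjusted p = 0.955. In the other T cells of the 6 libraries *Ywhaz* was at 414, 305 and 360 CPM in WT and 372, 223 and 230 CPM in KO (difference -85.0 CPM, exact permutation p = 0.3). A lower KO mean was thus not particular to the gated cells.

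Gated cells made up 23.9, 20.4 and 25% of the T cells in the WT libraries and 45.5, 10.8 and 14.7% in the KO libraries. The means were 23.1 ± 2.41% (SD, n = 3) and 23.7 ± 19.0% (SD, n = 3), and the exact permutation test gave p = 1, the smallest possible being 0.1. The WT shares lay within 5 percentage points of each other, whereas KO library 1, with 5 of 11 T cells, stood apart from the other KO libraries. Without it the KO mean was 12.8% and the difference -10.3 points (exact permutation p = 0.1).

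No gene was called between the genotypes in the gated cells (edgeR, 0 of 3561 genes tested, 0%), where 219 had an unadjusted p under 0.05 and the lowest adjusted p was 0.347. DESeq2 called 0, with 49 at an unadjusted p under 0.05. Without WT library 1, WT library 2 or KO library 3, edgeR called 56, 20 and 6 genes. Without WT library 1, 9 were higher and 47 lower in KO, and without WT library 2, 17 were higher and 3 lower, so the direction of the calls turned with the WT library that was kept. Both fits rest on a single WT library, assumed to vary like the KO libraries. Levels of KO and WT libraries did not overlap for 673 genes (18.9%), of which 356 (10%) were lower and 317 (8.9%) higher in KO.

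The 5 genes with the lowest p are given next, *Maf* of the regulators named above among them. *Krt83*, a keratin gene, was at 74.2 and 93.1 CPM in the WT libraries and 44.3, 10.5 and 9.63 CPM in the KO libraries (-2.90 ± 0.55 (SE), edgeR adjusted p = 0.347). *Rora*, a nuclear receptor of innate-like lymphocytes, was at 175 and 183 CPM and 88.6, 48.7 and 62.6 CPM (-1.73, adjusted p = 0.347). *Maf* was at 101 and 179.9 CPM and 0, 46.1 and 33.7 CPM (-1.89, adjusted p = 0.347). In each case both WT values lay above all KO values, as they did for 356 genes. *Lgals3*, the lectin galectin-3, was at 68.9 and 174 CPM and 0, 29 and 4.82 CPM (-2.62, adjusted p = 0.347). *Cd160* had the opposite order, at 26.5 and 26.8 CPM and 88.6, 105 and 106 CPM (1.92, adjusted p = 0.347, all edgeR).

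The markers of the gated cells did not pass the test between genotypes. *S100a4* differed by -1.57, adjusted p = 0.623, *Ramp1* by -1.72, adjusted p = 0.516 and *Trdc* by -1.56, adjusted p = 0.654 (edgeR). Of the fixed lists, to be read against the 18.9% of all genes (10% lower and 8.9% higher in KO), groups did not overlap for 3 of 5 innate-like regulators (*Rora*, *Maf* and *Id2*, lower in KO), 3 of 8 chemokine and cytokine receptors (*Ccr2*, *Il18r1* and *Ifngr1*, lower in KO) and 6 of 10 immediate early genes (*Fos*, *Jun*, *Junb*, *Jund*, *Dusp1* and *Nfkbia*, lower in KO). Of the 2 tested markers given for these cells, *S100a4* did not overlap and was lower in KO, at 307 and 382 CPM in the WT libraries and 88.6, 168 and 62.6 CPM in the KO libraries. In the other lists the groups did not overlap for 2 of 13 T cell receptor genes (1 lower and 1 higher in KO), 3 of 16 effector and tissue memory genes (2 lower and 1 higher), 1 of 11 cytotoxic and NK receptor genes (higher), 1 of 3 cytokines (lower), 2 of 7 checkpoint genes (1 lower and 1 higher) and 1 of 6 genes of the 14-3-3 family (lower). In lists this short, a share such as 2 of 13 or 3 of 16 is near that of all genes. They overlapped for each of the 2 coreceptors, 11 naive and central memory genes, 2 regulatory T cell genes, 7 cell cycle genes and, among markers of other cells, 3 of B cells, 2 of NK and innate lymphoid cells, 1 of endothelial cells and 13 of endocrine cells. The share of *Tcrg-C1* cells, in which *Maf*, *Il18r1* and *Ccr2* were higher than in the *Cxcr6*-only cells, was 18.5 and 33% in WT libraries 1 and 2 and 20, 15.3 and 36.4% in the KO libraries. It was highest in KO library 3, where *Maf* stood at 33.7 CPM and *Ccr2* at 19.3 CPM, and its part in these differences was not tested. The median log2 fold change was -0.86 for the innate-like regulators, -0.49 for the receptors, -0.87 for the immediate early genes and 1.17 for 7 cell cycle genes, beside -0.04 for all genes. All 16 immediate early genes summed to 2953 and 2270 CPM in the WT libraries and 1285, 1878 and 2408 CPM in the KO libraries. The 21 receptors summed to 1299 and 1703 CPM against 1418, 917 and 804 CPM, so both sums overlapped. The sums of the 14 innate-like regulators, 907 and 1337 CPM against 665, 584 and 544 CPM, did not. All 12 cell cycle genes summed to 737 and 1373 CPM in the WT libraries and 576, 1559.5 and 3617 CPM in the KO libraries. The highest sum was that of KO library 3, where 4 barcodes above 15000 UMIs held 81.7% of the UMIs, and their part in it was not tested.

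**Figure D5:**
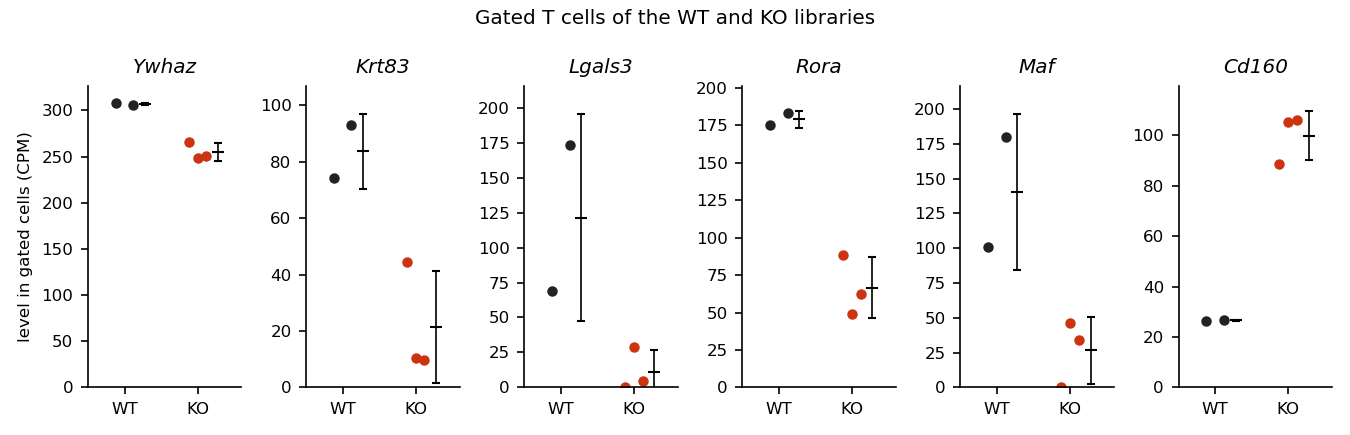
Levels of *Ywhaz* and of the 5 genes with the lowest p between genotypes in the gated T cells of 2 WT and 3 KO libraries, in CPM outside the gate genes, with points for libraries and bars for the mean and SD. The WT and KO points do not overlap for any of the 6 genes, and none passed the adjusted threshold.

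Lastly, the difference between gated and other T cells was compared between the genotypes by an interaction term in edgeR. It was more positive in KO for 0 of 6573 genes (0%) and more negative for 9 (0.137%), with 255 at an unadjusted p under 0.05. DESeq2 was not run on this term. *S100a6* was 382 and 838 CPM in the gated cells of the WT libraries against 47.0 and 161 CPM in their other T cells, and 487, 215 and 241 CPM against 372, 136 and 146 CPM in the KO libraries. Gated cells were thus higher in every library and by more in WT (term -2.07, adjusted p = 0.00405, edgeR). For *Ramp1*, with the values given above, the gated cells were higher in both WT libraries and in 2 of 3 KO libraries (term -1.94, adjusted p = 0.0454, edgeR). The other genes given here were *Apoe*, *H2-Ab1*, *Lgals3*, *Cd74*, *H2-Eb1* and *H2-Aa*, of which *Cd74* and the *H2* genes serve antigen presentation by B cells and macrophages. *Apoe*, an apolipoprotein that macrophages express, was at 15.9, 548, 0, 32.9 and 4.82 CPM in the gated cells and 74.7, 134, 0, 482 and 1349.9 CPM in the others. Summed macrophage markers were at 31.8 and 936 CPM in the gated cells of the WT libraries and 44.3, 65.8 and 19.3 CPM in those of the KO libraries, with 3 and 10 of 11 markers detected in the WT libraries and 1, 9 and 2 in the KO libraries. The 11 B cell markers summed to 154 and 1267 CPM in the gated cells of the WT libraries and 133, 478 and 106 CPM in those of the KO libraries. In the other T cells they summed to 140 and 1017 CPM in WT and 186, 1259 and 995 CPM in KO. The calls included 3 of 4 tested B cell markers and 1 of 2 tested macrophage and dendritic cell markers, beside 0.137% of all genes. The part of both lists in the result was not tested. Without barcodes above 15000 UMIs or rich in islet hormones, 6 genes were called, *S100a6* and *Cd74* of the 9 among them. Without KO library 1, 0 genes were called by edgeR, without KO library 2 there were 17, 6 of the 9 among them, and without KO library 3 there were 11, with 4 of the 9. Without WT library 1 there were 21, with 8 of the 9, and without WT library 2 there were 7, 6 of them more positive in KO, with 1 of the 9.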

How the data were processed

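The authors deposited 1 matrix of UMI counts per gene and barcode for each library, not normalized. Per the labels, libraries were 10x 3′ libraries processed with Cell Ranger 6.0.2 and Seurat on mm10.

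Cells were gated as described, with no doublet caller; alternatives removed barcodes above 15000 UMIs or above 1% hormone UMIs, and barcodes with UMIs of other cell types. Counts were summed per library and class, with gate, insulin and mitochondrial genes left out of totals and tests, and tested in edgeR 4.0.16 (TMM, filterByExpr, quasi-likelihood test, Benjamini-Hochberg, FDR 0.05) under R 4.3.3, in libraries with at least 5 cells of each class. Gated and other cells were blocked by library. Each SE of an edgeR log2 change is an approximation, the size of the change divided by the square root of the F statistic of its test. DESeq2 1.42.0 was an alternative. Single values were tested by exact permutation in Python 3.11.15 with scipy 1.17.1. Intervals are exact 95% binomial or Poisson intervals. The main fits were tested on simulated data with 200 changed genes.

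Named were the given markers, the genes of the fixed lists that were called, the 10 called genes with the largest changes in each direction, the 5 lowest p in each genotype comparison, lineage genes and *Ywhaz*. Members and lists were chosen with earlier results of these data known. The comparison of *Tcrg-C1* with *Cxcr6*-only cells, with its genes (those of the fixed lists and the 5 largest changes each way), and the settings without barcodes above 15000 UMIs or with thinned cells in the genotype comparisons were added after seeing the data. Genes named for context by detected share, for values under the threshold or as lying just outside a list were chosen after their values were seen. The numbers of the libraries were not shown to pair them: the labels give no shared day or litter, and deviations of the libraries numbered 1 and 2 from their group means correlated between genotypes at r = 0.221 and r = 0.0913 over 3561 genes, which is fewer than 3 pairs. Results on some genes are not reported here.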

Additional observations from a re-analysis of the deposited data

Results flagged for a closer look

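For 9 genes the difference between gated and other T cells was itself different between the genotypes, by the interaction term of edgeR (Benjamini-Hochberg, adjusted p under 0.05), in each case more positive in WT than in KO. The terms, on the log2 scale, were -2.07 for *S100a6* (adjusted p = 0.00405) and -1.94 for *Ramp1* (adjusted p = 0.0454). In the KO libraries *Ramp1* was at 266, 75.0 and 62.6 CPM in the gated cells and 112, 45.6 and 71.0 CPM in the others. *S100a6* was called by edgeR in 7 of 9 alternative settings and *Ramp1* in 1 of 9.

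Of the other terms, 6 are given here, -5.84 for *Apoe*, -3.97 for *H2-Ab1*, -3.28 for *Lgals3*, -3.45 for *Cd74*, -3.01 for *H2-Eb1* and -2.88 for *H2-Aa*. *Cd74*, the invariant chain of MHC class II, was at 5.30, 486, 0, 63.2 and 0 CPM in the gated cells of WT libraries 1 and 2 and KO libraries 1 to 3, and at 10.8, 300.3, 37.2, 235 and 437 CPM in their other T cells. Among the gated cells *Cd74* was highest in WT library 2, and without it the term was -1.84 with adjusted p = 0.932 (edgeR). *Lgals3* was at 68.9, 174, 0, 29.0 and 4.82 CPM in the gated cells and 89.1, 151, 0, 145 and 409 CPM in the others. The summed macrophage markers were at 31.8, 936, 44.3, 65.8 and 19.3 CPM in the gated cells and 97.6, 710, 0, 782 and 2071 CPM in the others, and their part in these terms was not tested.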

How the results depend on the processing

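The 32 genes called between gated and other T cells (23 higher, 9 lower) became 137 when low counts were kept, 10 without the library block (no replicate block), 12 with at least 10 cells a class, 4 with *Cxcr6* alone, 7 with at least 2 gate UMIs (these 3 without KO library 1), 168 with *Tcrg-C1* alone (without KO libraries 1 and 3), 5 with insulin under 10%, 10 without barcodes holding UMIs of other cell types, and 69 without barcodes above 15000 UMIs or rich in hormones. With either gate gene alone, the comparison cells included gated cells with only the other gene. Leaving out a library gave 10 to 71, 12 without KO library 1 and 71 without KO library 3. Named genes kept their direction except *Cd8a* (-0.56 with *Tcrg-C1* alone, -0.0712 with at least 2 gate UMIs), *Cd8b1* (-2.01 and -0.85), *Trac* (-0.191 to 0.0728 with a library left out) and *Ywhaz* (0.0416 without UMIs of other cell types, 0.0145 thinned, -0.137 to 0.0275 with a library left out). DESeq2 called 24. Between *Tcrg-C1* and *Cxcr6*-only cells, 33 calls (25 higher, 8 lower) became 70 when thinned (26 and 44), 87 with no filter (40 and 47), 9 without the library block and 18 to 106 with a library left out (47 and 59 without WT library 1). Between genotypes, 0 calls became 63 with no filter, 3 with the replicate block, 1 with at least 1 cell, 1 without barcodes above 15000 UMIs or rich in hormones and 0 to 56 with a library left out, 56 without WT library 1 (9 higher, 47 lower), 20 without WT library 2 (17 higher, 3 lower) and 6 without KO library 3. The 9 interaction terms became 0 with at least 10 cells, 1 when thinned and 0 to 21 with a library left out. The difference in the share of gated cells, 0.562 points, was -4.89 with at least 3 CD3 UMIs, -2.48 without barcodes above 15000 UMIs or rich in hormones and -10.3 to 6.97 with a library left out. *Ywhaz* differed by -51.8 CPM, by 22.0 CPM when thinned, by -57.3 to -48.7 CPM with a library left out and by -49.5 CPM when paired by replicate number (exact permutation p = 0.5, the smallest possible). The share with *Trdc* differed by 3.42 points, and by -0.87 to 12.6 with a library left out. The replicate block was run on the genotype comparison and on *Ywhaz*; it changed no direction there. The cause of these shifts was not tested. Limits are the 5 and 11 gated cells of KO libraries 1 and 3, the 2 WT libraries in the genotype tests, a gate that 54.6% of members pass with 1 UMI, and barcodes that may hold 2 cells. Simulated log2 changes of 1 were recovered in 62.1% of cases between gated and other T cells, 34.1% between the arms of the gate, 25.3% between genotypes and 3.1% in the interaction term. All simulations used the same fixed spread between sums and no other library differences. That spread was below the fitted coefficient of variation between genotypes (0.271) and above those of the other fits (0.175 to 0.187). The share of 25.3% may thus be too high for the real genotype test.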

Other observations

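Some genes too low to be tested with the whole gate were nonetheless unevenly spread over the gated cells. *Zbtb16* was found in 10 of 61 *Tcrg-C1* cells (16.4%), 9 of 199 *Cxcr6*-only cells (4.52%) and 6 of 1512 other T cells (0.397%). *Blk*, a kinase of B cells and interleukin-17-producing γδ T cells, was found in 15 of 61 *Tcrg-C1* cells (24.6%), 2 of 199 *Cxcr6*-only cells (1.01%) and 5 of 1512 other T cells (0.331%), beside 34.5% of B cells. *Gzmb*, a granule protease of cytotoxic T cells, was found in 7 of 61 *Tcrg-C1* cells (11.5%), 26 of 199 *Cxcr6*-only cells (13.1%) and 69 of 1512 other T cells (4.56%). *Tcrg-C2*, the closest to *Tcrg-C1* over the last 300 bases, was found in 19 of 61 *Tcrg-C1* cells (31.1%), 18 of 199 *Cxcr6*-only cells (9.05%) and 27 of 1512 other T cells (1.79%), and *Tcrg-C4* in 21 of 61 *Tcrg-C1* cells (34.4%), 13 of 199 *Cxcr6*-only cells (6.53%) and 20 of 1512 other T cells (1.32%). Among the T cells, except for *Gzmb*, these shares were highest in the *Tcrg-C1* cells. All are pooled over 6 libraries, and these shares were not tested.

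*Krt83* was found in 25 of 61 *Tcrg-C1* cells (41.0%), 19 of 199 *Cxcr6*-only cells (9.55%) and 7 of 1512 other T cells (0.463%). It was thus detected mostly in gated cells of both kinds. It was not on a fixed list and was named by its low p between genotypes.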
